A study of Mus musculus with 21 samples.

Results

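The matrix metalloproteases (MMP), the ADAM and ADAMTS metalloproteases and the tissue inhibitors of metalloproteases (TIMP) were followed in embryoid bodies, the free-floating aggregates that mouse embryonic stem cells form when they differentiate. Members were chosen by gene symbol alone: Mmp, Adam and Adamts genes with a number, and Timp1 to Timp4. This gave 79 of the 48321 symbols in the count tables, of which 23 were MMP, 33 ADAM, 19 ADAMTS and 4 TIMP genes. RNA-seq was done on day 3 of differentiation in 7 groups of 3 samples of the A2loxCre stem cell line, given in the labels as C57BL/6, in which a coding sequence can be placed behind a doxycycline-inducible promoter. The parental A2loxCre line, with no TWIST1 construct, received doxycycline. A line with the TWIST1 monomer was measured both without doxycycline (uninduced monomer) and with it (monomer). The other 4 groups received doxycycline and carried the TWIST1 homodimer, the TWIST1-TCF3 dimer, the TWIST1-TCF4 dimer or the TWIST1-TCF12 dimer, and the constructs were induced for 16 h. The monomer line alone has an uninduced group, so for each dimer the cell line and the induction cannot be told apart. The uninduced monomer line differs from the parental line in both line and doxycycline, which cannot be told apart either. No parental group lacks doxycycline, so within the monomer line the drug and TWIST1 cannot be told apart.

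MMPs are zinc endopeptidases that cut collagens, laminins and other matrix proteins, and are secreted as inactive proenzymes or held at the cell surface. ADAMs are mostly membrane proteins, several of which release the outer part of growth factors and receptors, and ADAMTS enzymes are secreted and cut proteoglycans or procollagens. TIMPs bind the active site of these enzymes, and cells that leave an epithelium during gastrulation or in tumours depend on such proteolysis to cross a basement membrane. TWIST1 is a basic helix-loop-helix factor that binds DNA as a dimer at E-boxes, the sequence CANNTG, and is known for its part in mesoderm and in epithelial-to-mesenchymal transition.

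Because the constructs are E-box binding dimers, the upstream windows of 4 members are shown first, 2 that rose in heterodimer groups (Adam19, which codes for a sheddase of neuregulin, and Mmp14, which codes for the membrane-type protease that activates proMMP2) and 2 that fell in some of them (Adamts9 and Mmp3). Each is the 250 bases before a RefSeq start site on GRCm38.p6, written 5′ to 3′ on the strand of the gene, with E-boxes in capitals. The Adam19 window (the second of its RefSeq windows) lies at chr11:46055734-46055983, forward strand, the Mmp14 window at chr14:54431348-54431597, forward strand, the Adamts9 window at chr6:92943535-92943784, reverse strand and the Mmp3 window at chr9:7445572-7445821, forward strand.
Adam19: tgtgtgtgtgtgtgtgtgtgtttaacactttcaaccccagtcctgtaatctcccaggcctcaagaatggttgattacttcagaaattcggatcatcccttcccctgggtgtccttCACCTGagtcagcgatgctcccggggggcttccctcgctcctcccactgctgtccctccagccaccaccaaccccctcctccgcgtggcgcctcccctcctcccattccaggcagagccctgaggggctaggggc
Mmp14: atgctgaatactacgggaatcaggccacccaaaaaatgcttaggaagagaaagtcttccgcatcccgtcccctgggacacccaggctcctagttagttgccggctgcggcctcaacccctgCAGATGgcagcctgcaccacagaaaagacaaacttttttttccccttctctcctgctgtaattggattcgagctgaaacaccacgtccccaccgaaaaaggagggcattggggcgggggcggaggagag
Adamts9: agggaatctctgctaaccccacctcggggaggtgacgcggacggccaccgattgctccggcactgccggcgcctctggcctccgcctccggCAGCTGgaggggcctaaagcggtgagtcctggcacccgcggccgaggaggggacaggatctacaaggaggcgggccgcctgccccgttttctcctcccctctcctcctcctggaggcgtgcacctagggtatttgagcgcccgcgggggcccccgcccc
Mmp3: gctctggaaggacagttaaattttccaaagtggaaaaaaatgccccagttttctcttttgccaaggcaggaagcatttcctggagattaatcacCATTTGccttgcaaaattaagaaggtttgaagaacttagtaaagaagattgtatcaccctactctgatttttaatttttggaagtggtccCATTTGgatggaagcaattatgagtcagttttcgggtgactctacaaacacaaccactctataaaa
The Adam19 window holds CACCTG, the Mmp14 window CAGATG, the Adamts9 window CAGCTG and the Mmp3 window CATTTG at both of its sites. Adam19 windows 1 and 3, not shown, hold 4 and 5 E-boxes. CANNTG reads the same pattern on both strands, so each site was counted once. RefSeq windows were matched for 49 of the 79 members and 27 of the 43 that could be tested. E-boxes were counted in the 250 bases before the start in every window. Among the 31 windows of tested members, 23 (74.2%) held at least 1 E-box there, and 66.2% of the 32851 windows of all genes did. CATATG was in 0 of the 31 windows and in 3.46% of all windows, and CATCTG or its reverse complement CAGATG was in 5 of 31 (16.1%) and in 14.4% of all windows. A match is a description of these letters and not a measurement of binding.

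Of the whole series, these facts bear on the results. Total counts per sample ranged from 6648842 to 15999693. Twist1 stood at 8.94, 8.02 and 7.37 CPM in the parental samples and 4.39, 5.65 and 5.18 CPM in the uninduced monomer samples, where CPM are read counts scaled to a common library size. Its mean was 613 CPM in the monomer line, 182 CPM in the homodimer line and between 39.4 and 55.2 CPM in the heterodimer groups. Tcf4 was high in the TCF4 dimer line, but the TCF3 dimer libraries had a mean of 154 CPM of Tcf3 against 167 CPM in the parental line, and Tcf12 did not single out the libraries labelled TCF12 dimer, so both groups are named by their labels. Sample 1 of the libraries labelled TCF12 dimer and sample 1 of the uninduced monomer line stood apart from the other samples of their groups (chi-square per degree of freedom over genes 85.9 to 105 and 35.5 to 39.7, against 1.42 to 3.80 for all other pairs). In TCF12 dimer sample 1, longer members lay lower relative to samples 2 and 3 (Spearman's rho of deviation and length -0.591 over 43 members, a description of genes in 1 library). Summed levels of 13 markers of extraembryonic endoderm ran from 611 to 635 CPM in the parental line, 2070 to 2480 uninduced monomer, 2000 to 2220 monomer, 415 to 480 homodimer, 1190 to 1490 TCF3 dimer, 357 to 387 TCF4 dimer and 401 to 456 CPM TCF12 dimer. Of the 13, 12 were tested by edgeR at an adjusted p under 0.05. Against the parental line 9 were higher and 0 lower in each monomer group (10.5% and 9.43% of all genes uninduced, 10.8% and 9.22% induced). With the TCF3 dimer 9 were higher and 2 lower (16.3% of all genes higher, 1719 of 14311 lower). With the homodimer 0 were higher and 7 lower (4.81% and 4.02%). With the TCF4 dimer it was 0 and 10 (7.18% and 5.67%), and with the TCF12 dimer 1 and 8 (15.5% and 11.5%). Nothing in the labels says that samples of a group came from separate cultures, so p-values measure the spread between these samples, which may be technical. In bulk RNA, fewer cells of a type and less RNA per cell cannot be told apart.

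A total of 43 members had enough counts to be tested: 14 MMP, 11 ADAM, 14 ADAMTS and all 4 TIMP genes. The 36 others were 22 ADAM, 9 MMP and 5 ADAMTS genes. Of these, 13 had no read in any sample and 23 had a few. In 4 of the untested members a sample reached 1 CPM, namely Adam12 (highest sample 1.16 CPM), Mmp10 (1.14), Adamts5 (1.08) and Adamts12 (1.05). The 10 ADAM genes and 3 MMP genes without a read were not detectable at a depth at which 3 counts correspond to 0.188 to 0.451 CPM. Per kilobase of exon, Mmp2 was the most abundant member on the mean of the 7 groups, at 35.5 CPM per kb, ahead of Mmp25 (15.6), Adam19 (10.2), Timp1 (9.82) and Adam10 (9.03). Summed over all 23 MMP genes, tested or not, levels per kilobase were 49.8 ± 0.636 CPM per kb in parental samples and 40.7 ± 2.82 in the uninduced monomer line (SD, n = 3). They were 56.1 ± 2.08 with the monomer and 66.5 ± 2.61 with the homodimer, and 94.1 ± 3.30, 99.8 ± 1.84 and 96.1 ± 4.67 CPM per kb in the TCF3, TCF4 and TCF12 dimer groups. The heterodimer groups carried the highest MMP sums, and their samples did not overlap those of the other groups. Mmp2 held 19.15 CPM per kb of the parental sum and 52.3, 57.5 and 58.6 of the TCF3, TCF4 and TCF12 dimer sums. Mmp25 held 12.35 of the parental sum and 17.4, 22.5 and 16.8 of these. Mmp3 and Mmp13 had lower means with the TCF4 and TCF12 dimers than in the parental line, so the sums do not describe each MMP gene. Of 8 markers of mesenchyme-like mesoderm 7 were tested, and 6 were higher with the heterodimers than with the homodimer (median log2 change 1.71), where 7.99% of all genes were higher. Their summed level was 68.1 to 85.1, 27.9 to 33.3 and 37.6 to 55.3 CPM in the TCF3, TCF4 and TCF12 dimer groups. It was 17.5 to 19.0 CPM in the parental line and 16.4 to 16.7 CPM with the homodimer, but 53.9 to 66.8 CPM in the monomer line with or without doxycycline. Against the parental line only 2 of the 7 were higher in each monomer group (10.5% of all genes uninduced, 10.8% induced). With the homodimer 2 were lower (4.02% of all genes). With the TCF3, TCF4 and TCF12 dimers 5, 4 and 6 were higher (16.3%, 7.18% and 15.5% of all genes). Hand2 was at 0 in the uninduced monomer samples, and the part of these markers in the MMP sums was not tested. TIMP sums moved less, with group means between 13.2 and 17.7 CPM per kb.

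Across the 7 groups, 31 of the 43 tested members (72.1%) differed by edgeR's quasi-likelihood test at an adjusted p under 0.05, against 50.7% of all 14311 tested genes. Genes under that threshold are said to pass. The median F statistic was 5.21 over the members and 3.25 over all tested genes. By family, 11 of 14 MMP, 6 of 11 ADAM, 11 of 14 ADAMTS and 3 of 4 TIMP genes passed. The libraries labelled TCF3 dimer held the highest group mean of 12 of the 31, while the monomer line held the lowest of 10 and the uninduced monomer line the lowest of 7. Highest and lowest groups were not counted over all genes, so these counts do not set the members apart. Without TCF12 dimer sample 1, 38 members passed over the 7 groups, with 73.4% of all genes passing. In that fit the biological coefficient of variation was 0.0539, against 0.12 with all samples. Because 14 of the 43 tested members share exon bases with another gene in GENCODE M21, and the labels do not say whether the kit keeps the strand, reads of the partner gene cannot be told apart for them. Adam19, Adamts9, Adamts4, Adamts8, Timp3 and Timp4 are among these.

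**Figure D1:**
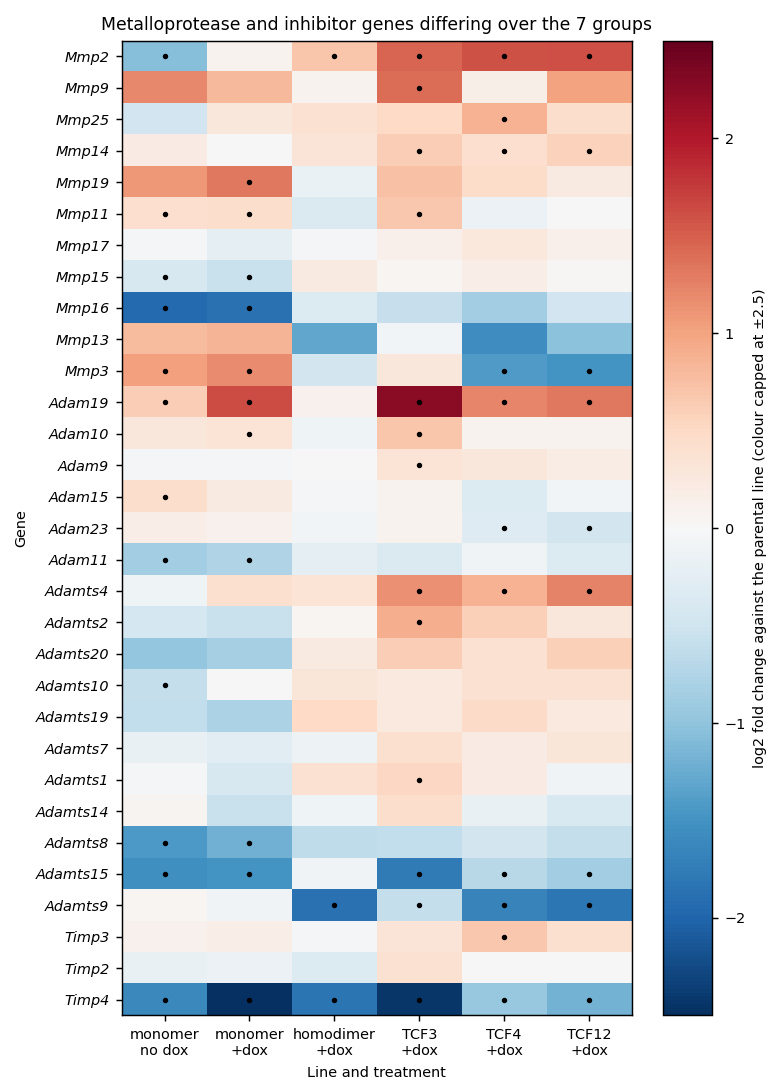
Log2 fold change against the parental line (colour, capped at the ends of the scale) of the 31 members that differed over the 7 groups (rows, by family) in each other group (columns), with a dot where edgeR's adjusted p is under 0.05. The Mmp2 row changes from blue in the uninduced monomer line to red in the 4 dimer groups, and the Timp4 row carries a dot and is blue in every column.

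The gelatinase Mmp2, which codes for the protease of denatured collagen and of type IV collagen, rose with the induced monomer over the same line without doxycycline and was highest in the 3 heterodimer groups. Samples 1 to 3 held 69.8, 63.0 and 61.0 CPM in parental samples, 30.3, 29.7 and 33.1 CPM in the uninduced monomer line and 70.9, 69.1 and 66.2 CPM in the monomer line. The homodimer samples held 107, 103 and 104 CPM. The values were 187, 165 and 177 CPM in the TCF3 dimer libraries, 195, 191 and 196 CPM in the TCF4 dimer line and 210.4, 200.3 and 182 CPM in the TCF12 dimer libraries. The uninduced monomer samples were the lowest, the homodimer samples lay above those of the parental and both monomer groups, and every heterodimer sample lay above every homodimer sample. The TCF3 dimer samples lay below the TCF4 dimer samples, and the TCF12 dimer samples overlapped both. Mmp2 rose from the uninduced to the induced monomer line (log2 fold change 1.15 ± 0.08 SE, edgeR adjusted p = 2.5e-08). Yet the uninduced line lay below the parental line (log2 fold change -1.06 ± 0.08 SE, edgeR adjusted p = 1.0e-08), and the induced monomer did not pass against the parental line (log2 fold change 0.09 ± 0.07 SE, edgeR adjusted p = 0.47). Against the parental line Mmp2 rose by 0.70 ± 0.07 with the homodimer, 1.45 ± 0.07 with the TCF3 dimer, 1.59 ± 0.07 with the TCF4 dimer and 1.61 ± 0.07 with the TCF12 dimer on the log2 scale (SE, largest edgeR adjusted p = 1.7e-06). The heterodimers together exceeded the homodimer (log2 fold change 0.85 ± 0.06 SE, edgeR adjusted p = 1.8e-08). Mmp2 lies on chromosome 8 (chr8:92827291-92853420, GRCm38), which holds 740 tested genes. Against the parental line their median log2 change was -0.105 for the uninduced and -0.0982 for the induced monomer line. It was 0.0609 for the homodimer and -0.0706, 0.0742 and 0.126 for the TCF3, TCF4 and TCF12 dimers. Medians of the genes elsewhere lay between -0.00395 and 0.019 in these comparisons. The part of these shifts in the Mmp2 values was not tested. The other gelatinase gene, Mmp9, stayed at or below 1.50 CPM in group mean and passed against the parental line in the TCF3 dimer libraries (log2 fold change 1.40 ± 0.42 SE, edgeR adjusted p = 0.017). That call was lost without parental sample 1 or 2 or TCF3 dimer sample 1 or 3 (edgeR adjusted p 0.0551 to 0.0877).

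**Figure D2:**
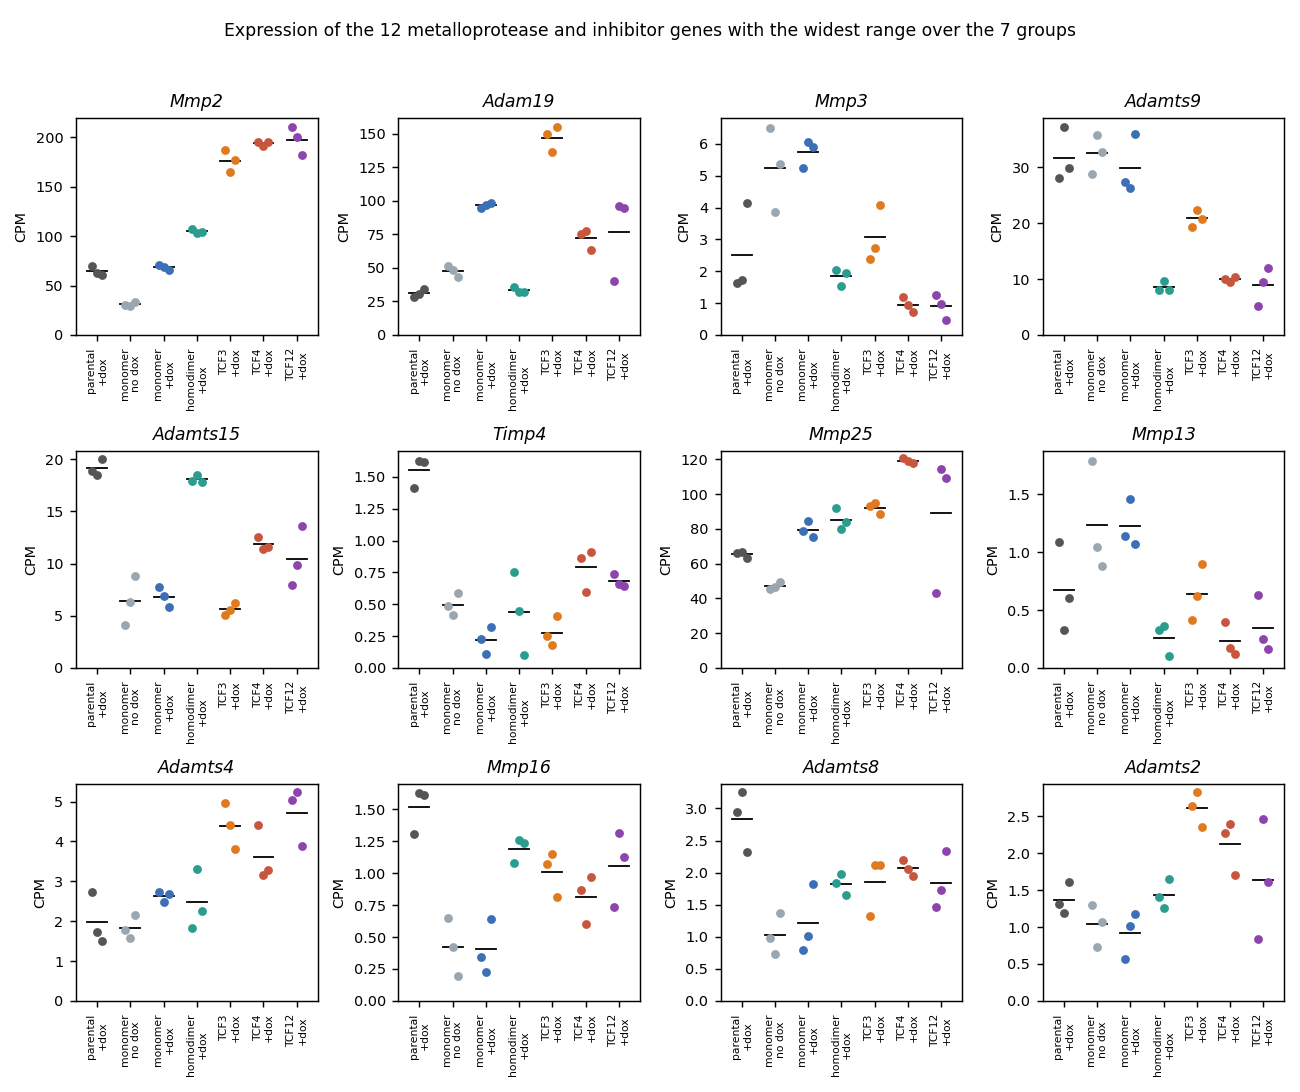
CPM (linear axes) of the 12 passing members with the widest range between group means, in the 7 groups (x axis), with a point for each sample and a line for the group mean. Mmp2 samples of the 3 heterodimer groups lie between 165 and 210.4 CPM, above all other samples, and 1 TCF12 dimer sample lies far below the other 2 in the Adam19 and Mmp25 panels.

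Of the stromelysins, Mmp3 and Mmp11 were higher in the monomer line than in the parental line whether or not it was induced, and Mmp3 was lower with the TCF4 and TCF12 dimers. Mmp3, which codes for stromelysin-1, a protease of broad range that also activates other MMPs, held 1.64, 1.73 and 4.14 CPM in the parental samples. It stood at 6.51, 3.87 and 5.37 CPM in the uninduced and 5.23, 6.08 and 5.91 CPM in the induced monomer samples, and at 2.05, 1.53 and 1.95 CPM with the homodimer. TCF3 dimer samples held 2.40, 2.74 and 4.07 CPM, TCF4 dimer samples 1.18, 0.941 and 0.730 CPM and TCF12 dimer samples 1.26, 0.985 and 0.484 CPM. The TCF4 and TCF12 dimer samples were the lowest, below every parental sample, and parental sample 3 lay apart from the other 2 and inside the range of the uninduced monomer samples. Mmp3 was higher in the monomer line than in the parental line both uninduced (log2 fold change 1.02 ± 0.31 SE, edgeR adjusted p = 0.025) and induced (log2 fold change 1.18 ± 0.30 SE, edgeR adjusted p = 0.0086). It fell against the parental line with the TCF4 dimer (log2 fold change -1.42 ± 0.38 SE, edgeR adjusted p = 0.016) and the TCF12 dimer (log2 fold change -1.50 ± 0.40 SE, edgeR adjusted p = 0.009). Without parental sample 3 the TCF4 and TCF12 changes were -0.84 and -0.92, and the calls were lost (edgeR adjusted p 0.203 and 0.107). The TCF4 call was also lost without TCF4 dimer sample 3 (edgeR adjusted p 0.0836). The call in the uninduced line was lost without parental sample 1 or 2 or uninduced monomer sample 1 or 3 (edgeR adjusted p 0.0752 to 0.124) and the call with the monomer without parental sample 1 or 2 (edgeR adjusted p 0.055 to 0.0569).

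Mmp13, which codes for collagenase-3, was scarce in every group. Its samples held 1.09, 0.325 and 0.605 CPM in parental samples, 1.79, 1.05 and 0.879 CPM in the uninduced monomer line and 1.14, 1.46 and 1.07 CPM in the monomer line. They held 0.324, 0.359 and 0.103 CPM with the homodimer, 0.413, 0.618 and 0.895 CPM with the TCF3 dimer, 0.393, 0.171 and 0.122 CPM with the TCF4 dimer and 0.630, 0.246 and 0.161 CPM with the TCF12 dimer. Each homodimer, TCF4 dimer and TCF12 dimer sample lay below each monomer sample, while parental samples spread over both ranges and several of these values lie near the level of 3 counts. Against the induced monomer, Mmp13 was lower with the homodimer (log2 fold change -2.16 ± 0.54 SE, edgeR adjusted p = 0.0072), the TCF4 dimer (log2 fold change -2.41 ± 0.52 SE, edgeR adjusted p = 0.0016) and the TCF12 dimer (log2 fold change -1.88 ± 0.50 SE, edgeR adjusted p = 0.0069). Mmp11, which codes for stromelysin-3, a member known from stroma around tumours, had group means from 7.28 CPM (homodimer) to 15.0 CPM (TCF3 dimer). It rose against the parental line with the TCF3 dimer (log2 fold change 0.68 ± 0.12 SE, edgeR adjusted p = 3.7e-04), and all 3 TCF3 dimer samples (15.8, 14.3 and 15.0 CPM) lay above all parental samples (7.96, 10.7 and 9.49 CPM). Mmp19 had group means from 0.522 to 1.52 CPM. The endoderm marker sums given above were also high in both monomer groups and in the TCF3 dimer libraries, where Mmp3, Mmp11 and Mmp19 had their 3 highest group means, and their part in these results was not tested.

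Of the membrane-bound MMPs, Mmp14 rose in all 3 heterodimer groups and Mmp25 in the TCF4 dimer line, while Mmp16 and Mmp15 were low in the monomer line. Mmp25, which codes for an MMP held at the surface by a lipid anchor, was the second most abundant member per kilobase. It held 65.9, 67.0 and 63.5 CPM in parental samples, 45.6, 46.5 and 49.4 CPM in the uninduced and 79.0, 84.5 and 75.2 CPM in the induced monomer samples. Homodimer samples held 92.1, 79.8 and 84.2 CPM, TCF3 dimer samples 93.0, 95.0 and 88.7 CPM, TCF4 dimer samples 121, 119 and 118 CPM and TCF12 dimer samples 43.1, 114 and 109 CPM. The uninduced monomer samples lay below, and the induced monomer samples above, every parental sample, and the TCF4 dimer samples were the highest of all samples. TCF12 dimer sample 1 was the lowest of the 21, with samples 2 and 3 next below the TCF4 dimer. Against the parental line Mmp25 passed with the TCF4 dimer (log2 fold change 0.87 ± 0.21 SE, edgeR adjusted p = 0.0082). With TCF12 dimer sample 1 left out it also passed for the TCF12 dimer (log2 fold change 0.77 ± 0.06 SE, edgeR adjusted p = 1.6e-11) and for the induced against the uninduced monomer (log2 fold change 0.75 ± 0.06 SE, edgeR adjusted p = 2.6e-10, against 0.093 with all samples).

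Mmp14 samples held 33.1, 35.2 and 34.8 CPM in parental samples, 48.1, 53.1 and 56.5 CPM with the TCF3 dimer, 52.0, 45.0 and 41.1 CPM with the TCF4 dimer and 59.3, 48.9 and 45.0 CPM with the TCF12 dimer. All 9 heterodimer samples lay above the 3 parental samples. The rise was 0.61 ± 0.11, 0.42 ± 0.11 and 0.57 ± 0.11 on the log2 scale for TCF3, TCF4 and TCF12 (SE, largest edgeR adjusted p = 0.019). With the parental and TCF12 dimer samples fitted alone the TCF12 call was lost (edgeR adjusted p = 0.0688). The homodimer and uninduced monomer samples also all lay above the 3 parental samples, though Mmp14 passed in neither group. Heterodimer samples overlapped the homodimer samples. Against the uninduced monomer line the log2 changes were 0.40, 0.21 and 0.36 for TCF3, TCF4 and TCF12 (edgeR adjusted p = 0.012, 0.18 and 0.019). Mmp16, which codes for a further membrane-type MMP, was low in both monomer groups. Samples held 1.31, 1.63 and 1.61 CPM in parental samples, 0.651, 0.418 and 0.195 CPM in the uninduced and 0.341, 0.225 and 0.645 CPM in the induced monomer line. They held 1.08, 1.26 and 1.23 CPM with the homodimer, 1.07, 1.15 and 0.813 CPM with the TCF3 dimer, 0.865, 0.599 and 0.973 CPM with the TCF4 dimer and 0.735, 1.31 and 1.13 CPM with the TCF12 dimer. No sample of the monomer line reached the lowest parental sample. Mmp16 was lower than in the parental line in the uninduced (log2 fold change -1.94 ± 0.37 SE, edgeR adjusted p = 9.0e-04) and induced monomer line (log2 fold change -1.87 ± 0.36 SE, edgeR adjusted p = 9.0e-04). Mmp15 was also lower in both (log2 -0.41 ± 0.12 and -0.56 ± 0.12, SE), with group means from 14.6 CPM (monomer) to 25.0 CPM (homodimer). Mmp17 had group means from 11.4 CPM (monomer) to 16.1 CPM (TCF4 dimer).

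Adam19 changed more than any other ADAM gene. It codes for a sheddase that acts on neuregulins and is used in heart valve and septum formation. Samples held 28.1, 30.7 and 34.2 CPM in parental samples, 51.6, 48.5 and 43.4 CPM in the uninduced and 94.8, 97.1 and 98.2 CPM in the induced monomer line. Homodimer samples held 35.8, 32.1 and 32.3 CPM, close to the parental line, and TCF3 dimer samples 149.7, 137 and 155 CPM. TCF4 dimer samples held 75.6, 77.7 and 63.4 CPM and TCF12 dimer samples 39.9, 96.2 and 95.0 CPM. The TCF3 dimer samples were the highest of the 21, the uninduced monomer samples lay between the parental and the induced monomer samples without overlap, and TCF12 dimer sample 1 lay far below the other 2 of its group. Adam19 rose on induction of the monomer (log2 fold change 1.02 ± 0.21 SE, edgeR adjusted p = 0.0094), and this call was lost without uninduced monomer sample 3 (edgeR adjusted p 0.064). Against the parental line it was higher with the monomer (log2 fold change 1.64 ± 0.21 SE, edgeR adjusted p = 1.3e-05), the TCF3 dimer (log2 fold change 2.25 ± 0.21 SE, edgeR adjusted p = 1.9e-07), the TCF4 dimer (log2 fold change 1.22 ± 0.21 SE, edgeR adjusted p = 4.8e-04) and the TCF12 dimer (log2 fold change 1.32 ± 0.21 SE, edgeR adjusted p = 1.4e-04). Without sample 1 the mean of the TCF12 dimer libraries was 95.6 CPM and the change 1.62. For the homodimer it did not pass (log2 fold change 0.11 ± 0.22 SE, edgeR adjusted p = 0.89), and the heterodimers together exceeded the homodimer (log2 fold change 1.49 ± 0.18 SE, edgeR adjusted p = 1.4e-05). Adam19 lies on chromosome 11 (chr11:46055992-46147343, GRCm38), where 1067 of its 7115 exon bases are shared with genes of the opposite strand. The 1117 tested genes of that chromosome had a median log2 change of 0.202 in the TCF3 dimer libraries against the parental line, and the genes elsewhere had -0.00247. Timp2, Adam11 and Adamts2 lie on the same chromosome, and the part of that shift in their values and those of Adam19 was not tested.

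Adam10, which codes for the main sheddase of Notch receptors and ligands, rose in the TCF3 dimer libraries. Its samples held 65.2, 62.2 and 57.6 CPM there and 39.5, 36.0 and 39.1 CPM in the parental line, without overlap (log2 fold change 0.69 ± 0.11 SE, edgeR adjusted p = 9.1e-05). Group means of the other lines lay between 35.3 and 48.4 CPM. Adam9 also rose there, from 32.3 ± 0.333 to 41.1 ± 3.31 CPM (SD, n = 3, log2 fold change 0.35 ± 0.12 SE, edgeR adjusted p = 0.032). Adam17, which codes for the sheddase of tumour necrosis factor and of several growth factors, did not pass over the 7 groups, with means from 51.0 to 69.1 CPM. Adam15 was higher in the uninduced monomer line than in the parental samples (log2 fold change 0.44 ± 0.14 SE, edgeR adjusted p = 0.034), a call lost without parental sample 1 or 2 or 3 or uninduced monomer sample 1 or 2 or 3 (edgeR adjusted p 0.0689 to 0.111). Adam11, Adam22 and Adam23 code for ADAM proteins without protease activity that bind LGI proteins at synapses. Of these, Adam23 fell with the TCF4 dimer (log2 fold change -0.33 ± 0.11 SE, edgeR adjusted p = 0.045) and the TCF12 dimer (log2 fold change -0.47 ± 0.11 SE, edgeR adjusted p = 0.0033). The TCF4 call was lost without parental sample 1 or 2 or 3, uninduced monomer sample 1 or 2, monomer sample 3, homodimer sample 2 or 3, TCF3 dimer sample 3 or TCF4 dimer sample 1 or 2 or 3 (edgeR adjusted p 0.0524 to 0.148). Adam11 was lower in both monomer groups, at 4.56 ± 0.282 and 4.93 ± 0.284 CPM against 8.27 ± 0.240 CPM in the parental line (SD, n = 3, log2 -0.87 ± 0.15 and -0.74 ± 0.15, SE). Adam22 did not pass over the 7 groups.

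The procollagen N-proteinases Adamts2, Adamts3 and Adamts14, which trim the amino end of fibrillar procollagens, were all scarce. Adamts2 samples held 1.31, 1.19 and 1.61 CPM in parental samples, 1.30, 0.732 and 1.07 CPM in the uninduced and 0.569, 1.01 and 1.18 CPM in the induced monomer line. They held 1.40, 1.26 and 1.65 CPM with the homodimer, 2.65, 2.82 and 2.36 CPM with the TCF3 dimer, 2.28, 2.39 and 1.70 CPM with the TCF4 dimer and 0.839, 2.46 and 1.61 CPM with the TCF12 dimer. Each TCF3 dimer and TCF4 dimer sample lay above each parental and monomer sample, and the TCF12 dimer samples spread over all of these. Adamts2 rose in the TCF3 dimer libraries against the parental line (log2 fold change 0.92 ± 0.29 SE, edgeR adjusted p = 0.023), a call lost without parental sample 1 or 2 or TCF3 dimer sample 1 or 2 (edgeR adjusted p 0.0548 to 0.0924). It also exceeded the monomer with the TCF3 dimer (log2 fold change 1.48 ± 0.32 SE, edgeR adjusted p = 0.0021) and with the TCF4 dimer (log2 fold change 1.17 ± 0.32 SE, edgeR adjusted p = 0.01). Adamts14 had group means from 1.22 CPM (monomer) to 2.43 CPM (TCF3 dimer), and Adamts3 did not pass over the 7 groups.

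The proteoglycan-cutting ADAMTS genes moved in opposite directions. Adamts9, which codes for an enzyme that cuts versican and is needed in early mouse development, was lower with the homodimer, the TCF4 dimer and the TCF12 dimer than with the monomer. The TCF3 dimer call against the monomer (log2 fold change -0.52 ± 0.18 SE, edgeR adjusted p = 0.047) was lost on leaving out any of 17 of the 21 samples (edgeR adjusted p 0.052 to 0.237) and with library-size scaling (0.13). Samples held 28.0, 37.2 and 29.9 CPM in parental samples, 28.8, 35.9 and 32.8 CPM in the uninduced and 27.4, 26.2 and 36.0 CPM in the induced monomer line. Homodimer samples held 8.09, 9.69 and 8.13 CPM and TCF3 dimer samples 19.3, 22.4 and 20.7 CPM. TCF4 dimer samples held 10.1, 9.41 and 10.3 CPM and TCF12 dimer samples 5.25, 9.44 and 12.03 CPM. The parental and both monomer groups overlapped, the TCF3 dimer samples lay between them and the rest, and the homodimer, TCF4 and TCF12 dimer samples lay below them. Against the parental line Adamts9 fell with the homodimer (log2 fold change -1.87 ± 0.20 SE, edgeR adjusted p = 2.2e-06), the TCF4 dimer (log2 fold change -1.67 ± 0.19 SE, edgeR adjusted p = 4.6e-06) and the TCF12 dimer (log2 fold change -1.81 ± 0.20 SE, edgeR adjusted p = 1.3e-06). With the TCF3 dimer the fall was smaller (log2 fold change -0.60 ± 0.18 SE, edgeR adjusted p = 0.017), and its call was lost without parental sample 2 or TCF3 dimer sample 1 or 3 (edgeR adjusted p 0.0574 to 0.0894). The endoderm marker sums were lowest in the same 3 groups in which Adamts9 was lowest, but the other groups did not follow that order. Parental sums were 611 to 635 CPM and uninduced monomer sums 2070 to 2480 CPM, while their Adamts9 samples overlapped. The TCF3 dimer sums, 1190 to 1490 CPM, lay above the parental sums, while its Adamts9 samples lay below the parental samples. The part of these markers in this result was not tested.

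Adamts15, which codes for another proteoglycan-cutting enzyme, showed a different order. Samples held 18.9, 18.5 and 19.98 CPM in parental samples, 4.07, 6.27 and 8.79 CPM in the uninduced and 7.74, 6.86 and 5.80 CPM in the induced monomer line. Homodimer samples held 17.9, 18.5 and 17.8 CPM and TCF3 dimer samples 5.04, 5.56 and 6.26 CPM. TCF4 dimer samples held 12.6, 11.4 and 11.6 CPM and TCF12 dimer samples 7.97, 9.85 and 13.6 CPM. The parental and homodimer samples were the highest, next to each other, and the monomer and TCF3 dimer samples were the lowest, with the TCF4 dimer samples between them. TCF12 dimer samples overlapped both the TCF4 dimer samples and the highest uninduced monomer sample. Adamts15 fell against the parental line in the uninduced (log2 fold change -1.54 ± 0.19 SE, edgeR adjusted p = 1.1e-05) and induced monomer line (log2 fold change -1.49 ± 0.19 SE, edgeR adjusted p = 1.2e-05) and in the TCF3 (log2 fold change -1.76 ± 0.19 SE, edgeR adjusted p = 9.4e-07), TCF4 (log2 fold change -0.69 ± 0.18 SE, edgeR adjusted p = 0.012) and TCF12 dimer groups (log2 fold change -0.86 ± 0.18 SE, edgeR adjusted p = 0.0016). The homodimer did not pass (log2 fold change -0.08 ± 0.17 SE, edgeR adjusted p = 0.89), and the heterodimers together lay below it (log2 fold change -1.02 ± 0.14 SE, edgeR adjusted p = 4.8e-05).

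Adamts4, which codes for aggrecanase-1, was higher in heterodimer groups. Samples held 2.73, 1.73 and 1.51 CPM in parental samples, 1.79, 1.57 and 2.15 CPM in the uninduced and 2.73, 2.48 and 2.69 CPM in the induced monomer line. It was at 1.83, 3.32 and 2.26 CPM with the homodimer. They held 4.96, 4.41 and 3.82 CPM with the TCF3 dimer, 4.40, 3.16 and 3.28 CPM with the TCF4 dimer and 5.04, 5.25 and 3.87 CPM with the TCF12 dimer. Each of these 9 samples lay above each parental sample, while 1 homodimer sample lay within their range. Adamts4 rose against the parental line by 1.14 ± 0.24, 0.86 ± 0.24 and 1.24 ± 0.24 on the log2 scale (SE, edgeR adjusted p = 0.0011, 0.021 and 7.2e-04). The TCF4 call was lost without parental sample 2 or 3 or TCF4 dimer sample 1 (edgeR adjusted p 0.0968 to 0.127). Adamts8 samples held 2.94, 3.25 and 2.32 CPM in parental samples, 0.976, 0.732 and 1.37 CPM in the uninduced and 0.797, 1.01 and 1.83 CPM in the induced monomer line. They held 1.83, 1.97 and 1.65 CPM with the homodimer, 1.32, 2.12 and 2.11 CPM with the TCF3 dimer, 2.20, 2.05 and 1.95 CPM with the TCF4 dimer and 1.47, 1.72 and 2.34 CPM with the TCF12 dimer. Parental samples were the highest with 1 TCF12 dimer sample just inside their range, and both monomer groups were lower than the parental line (log2 fold change -1.44 ± 0.30 SE, edgeR adjusted p = 0.0017 uninduced, log2 fold change -1.21 ± 0.29 SE, edgeR adjusted p = 0.0046 induced). Adamts1 was highest in the TCF3 dimer libraries (7.94 ± 0.338 CPM against 5.58 ± 0.324 CPM in the parental line, SD, n = 3, log2 fold change 0.51 ± 0.16 SE, edgeR adjusted p = 0.023). Adamts20 had group means from 0.565 to 1.72 CPM. Of the remaining ADAMTS genes, Adamts10, Adamts19 and Adamts7 passed over the 7 groups, with group means of 7.44 to 14.8, 1.63 to 3.99 and 7.22 to 11.5 CPM.

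Of the 4 inhibitors, 3 passed over the 7 groups, and Timp4, the scarcest per kilobase, had the widest range in ratio. Timp1 samples held 8.28, 8.24 and 7.47 CPM in parental samples, 11.7, 10.98 and 11.04 CPM in the uninduced and 11.04, 9.11 and 9.67 CPM in the induced monomer line. They held 6.80, 8.89 and 7.30 CPM with the homodimer, 8.51, 7.77 and 8.62 CPM with the TCF3 dimer, 6.61, 5.22 and 6.81 CPM with the TCF4 dimer and 16.8, 6.73 and 5.49 CPM with the TCF12 dimer. Both monomer groups lay above the parental samples, and TCF12 dimer sample 1 was the highest of the 21 while the other 2 of its group were near the TCF4 dimer samples. Timp1 did not pass over the 7 groups (edgeR adjusted p = 0.16), and its transcript, at 888 exon bases, is the shortest of those named here. Timp2, which with MMP14 takes part in the activation of proMMP2, held 12.1, 10.7 and 12.4 CPM in parental samples, 11.4, 9.93 and 9.77 CPM in the uninduced and 12.3, 10.0 and 9.57 CPM in the induced monomer line. It held 10.8, 7.09 and 10.2 CPM with the homodimer, 16.5, 12.7 and 16.3 CPM with the TCF3 dimer, 14.00, 10.6 and 10.6 CPM with the TCF4 dimer and 13.0, 12.1 and 9.85 CPM with the TCF12 dimer. The TCF3 dimer samples reached the highest values and overlapped the TCF4 and TCF12 dimer samples. Timp2 was higher with the heterodimers together than with the homodimer (log2 fold change 0.45 ± 0.14 SE, edgeR adjusted p = 0.035), and with the TCF3 dimer than with the monomer (log2 fold change 0.52 ± 0.16 SE, edgeR adjusted p = 0.028). Heterodimer and homodimer samples overlapped, and whether either call holds with single samples left out was not followed.

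Timp3, which codes for the inhibitor bound to the matrix, held 17.1, 18.0 and 17.1 CPM in parental samples, 18.9, 18.1 and 19.2 CPM in the uninduced and 19.5, 19.2 and 19.9 CPM in the induced monomer line. It held 16.0, 16.5 and 17.7 CPM with the homodimer, 22.1, 20.7 and 22.4 CPM with the TCF3 dimer, 26.1, 29.7 and 27.7 CPM with the TCF4 dimer and 13.96, 24.9 and 29.4 CPM with the TCF12 dimer. The TCF3 and TCF4 dimer samples lay above all samples without a heterodimer, as did TCF12 dimer samples 2 and 3, and TCF12 dimer sample 1 was the lowest of the 21. Timp3 rose with the TCF4 dimer against the parental line (log2 fold change 0.68 ± 0.16 SE, edgeR adjusted p = 0.0074). With TCF12 dimer sample 1 left out it also passed for the TCF12 dimer (log2 fold change 0.64 ± 0.09 SE, edgeR adjusted p = 1.2e-06). Timp4 samples held 1.42, 1.63 and 1.61 CPM in parental samples, 0.488, 0.418 and 0.586 CPM in the uninduced and 0.228, 0.113 and 0.322 CPM in the induced monomer line. They held 0.755, 0.449 and 0.103 CPM with the homodimer, 0.248, 0.177 and 0.407 CPM with the TCF3 dimer, 0.865, 0.599 and 0.912 CPM with the TCF4 dimer and 0.735, 0.656 and 0.646 CPM with the TCF12 dimer. All 3 parental samples lay above all 18 others, of which several were near the level of 3 counts. Timp4 fell against the parental line in each of the other 6 groups, from -0.94 ± 0.30 with the TCF4 dimer to -2.74 ± 0.43 with the monomer on the log2 scale (SE, edgeR adjusted p = 0.045 and 1.1e-04). The TCF4 call was lost without parental sample 1 or 2 or 3, uninduced monomer sample 1 or 2 or 3, monomer sample 1 or 2 or 3, homodimer sample 2, TCF3 dimer sample 1 or 2, TCF4 dimer sample 1 or 2 or 3 or TCF12 dimer sample 2 (edgeR adjusted p 0.051 to 0.158). Summed markers of the primitive streak ran from 213 to 252 CPM in the parental line and from 16.3 to 41.6 CPM in the other 6 groups, with 7 of 7 tested markers lower in each, and Mesp1 was at 0 in the homodimer samples. Their part in the Timp4 values was not tested.

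**Figure D3:**
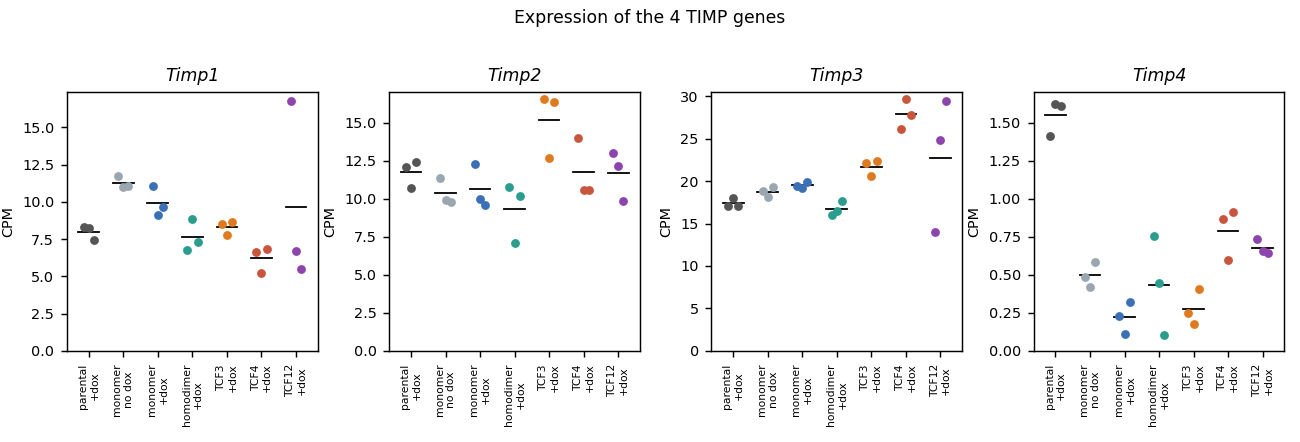
CPM (linear axes) of the 4 TIMP genes in the 7 groups (x axis), with a point for each sample and a line for the group mean. The 3 parental samples are the highest for Timp4, and TCF12 dimer sample 1 is the highest point for Timp1 and the lowest for Timp3.

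Induction of the monomer was read within a single line, with and without doxycycline, so the drug and TWIST1 changed together. Of 43 tested members, 2 passed (4.65%), against 2.00% of all genes, and both rose (1.52% of all genes were higher and 0.475% lower): Mmp2 and Adam19, by the values given above. Without uninduced monomer sample 3, Mmp2 alone passed, with 1.42% of all genes. The median log2 change was -0.0433 over the members and -0.00505 over all tested genes, and 4 members had an unadjusted p under 0.05. Without TCF12 dimer sample 1, 4 members and 6.17% of all genes passed, the others being Mmp25 and Adamts10 (log2 fold change 0.60 ± 0.15 SE, edgeR adjusted p = 0.012). The groups compared here hold none of the TCF12 dimer samples. That fit tested 44 members and 14423 genes, and the cause of the rise in calls was not tested.

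The same line without doxycycline differed from the parental line at more members than induction moved. The parental line received doxycycline, so line and drug cannot be told apart in this comparison. Of 43, 13 passed (30.2%, against 19.9% of all genes), 4 higher and 9 lower (10.5% and 9.43% of all genes). The largest decreases were those of Mmp16, Timp4, Adamts15 and Adamts8, given above, and of Adamts6 (log2 fold change -1.10 ± 0.35 SE, edgeR adjusted p = 0.034), which was lost without parental sample 2 or 3 or uninduced monomer sample 1 or 2 (edgeR adjusted p 0.0779 to 0.13). The increases were those of Mmp3 and Adam15, of Adam19 (log2 0.62 ± 0.21, SE, edgeR adjusted p = 0.048) and of Mmp11 (log2 fold change 0.41 ± 0.13 SE, edgeR adjusted p = 0.031). The Adam19 call was lost without parental sample 1 or 2 or 3, uninduced monomer sample 1 or 2 or 3, monomer sample 1 or 2 or 3, homodimer sample 1 or 2 or 3, TCF3 dimer sample 1 or 2 or 3 or TCF4 dimer sample 1 or 2 or 3 (edgeR adjusted p 0.0534 to 0.154), and the Mmp11 call without parental sample 1 or 3 or uninduced monomer sample 1 (edgeR adjusted p 0.0807 to 0.191). With scaling by library size only, 2 were higher and 9 lower (19.7% of all genes passing), and without uninduced monomer sample 1, 7 passed, all lower (15.1%). The Adam19 call was also lost with RLE factors and library-size scaling (edgeR adjusted p = 0.0515 and 0.136), and the Mmp11 call with library-size scaling, no filter and DESeq2 (adjusted p 0.0528 to 0.12). Without TCF12 dimer sample 1, 20 passed, with 36.8% of all genes. The induced monomer against the parental line gave 12 (27.9%, against 20.0% of all genes), 5 higher and 7 lower (10.8% and 9.22% of all genes), and shares its control with the comparison before. Its decreases were led by Timp4 (-2.74 ± 0.43), Mmp16 (-1.87 ± 0.36), Adamts15 (-1.49 ± 0.19), Adamts6 (-1.27 ± 0.36) and Adamts8 (-1.21 ± 0.29), as log2 changes with SE. Its increases were Adam19 (1.64 ± 0.21), Mmp19 (1.32 ± 0.42), Mmp3 (1.18 ± 0.30), Mmp11 (0.44 ± 0.13) and Adam10 (0.34 ± 0.11). The Mmp19 call was lost without parental sample 1 or 3 or monomer sample 1 or 2 (edgeR adjusted p 0.057 to 0.135), the Mmp11 call without parental sample 1 or 3 or monomer sample 2 or 3 (edgeR adjusted p 0.056 to 0.112), the Adam10 call without parental sample 1 or 2 or 3, uninduced monomer sample 3, monomer sample 1 or 2 or 3, homodimer sample 2, TCF3 dimer sample 2 or TCF4 dimer sample 2 (edgeR adjusted p 0.0503 to 0.147) and the Adamts6 call without parental sample 2 or monomer sample 1 or 2 (edgeR adjusted p 0.053 to 0.0684). With no filter on low counts Mmp11 and Adam10 were lost (edgeR adjusted p = 0.0682 and 0.0742), and with library-size scaling Adam10 (0.165).

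The homodimer differed from the parental line at 3 members (6.98%, against 8.84% of all genes): Mmp2 was higher, and Adamts9 and Timp4 (log2 fold change -1.82 ± 0.36 SE, edgeR adjusted p = 0.0023) were lower (4.81% of all genes were higher and 4.02% lower). Leaving out TCF12 dimer sample 1 gave 6, with 20.4% of all genes. With the uninduced monomer line as the control it was 15, with 22.8% of all genes. The TCF3 dimer libraries had 13 (30.2%, against 28.3% of all genes), 10 higher and 3 lower (16.3% of all genes were higher, and 1719 of the 14311 lower), with a median log2 change of 0.239 over the members and 0.0131 over all tested genes. The 5 largest increases were Adam19, Mmp2, Mmp9, Adamts4 and Adamts2, and the decreases were Timp4 (-2.42 ± 0.38), Adamts15 and Adamts9. Without TCF12 dimer sample 1, 22 members and 46.5% of all genes passed, and 8 members passed without parental sample 2 (22.2% of all genes) and 8 without TCF3 dimer sample 1 (21.5%). In the TCF4 dimer line 11 passed (25.6%, against 12.9% of all genes), 6 higher and 5 lower (7.18% and 5.67% of all genes). The increases were led by Mmp2, Adam19, Mmp25, Adamts4 and Timp3, and the decreases were Adamts9, Mmp3, Timp4, Adamts15 and Adam23. With scaling by library size only, 6 were higher and 3 lower, with 11.6% of all genes passing. The number was 17 without TCF12 dimer sample 1, with 28.1% of all genes. It was 6 without parental sample 3 (8.98% of all genes) and 7 without TCF4 dimer sample 1 (9.66%), and with the uninduced monomer line as the control it was 23 (32.3%). The Timp4 call was also lost with library-size scaling, no filter on low counts and DESeq2 (adjusted p 0.0529 to 0.171), and the Adam23 call with library-size scaling and no filter (edgeR adjusted p = 0.129 and 0.124). The TCF12 dimer libraries had 9 (20.9%, against 27.0% of all genes), 4 higher (Mmp2, Adam19, Adamts4 and Mmp14) and 5 lower (Adamts9, Mmp3, Timp4, Adamts15 and Adam23), where 15.5% of all genes were higher and 11.5% lower. With the 2 groups fitted alone, 4 of 37 tested members and 6.11% of all genes passed. Of the 9 named, that fit lost Adam19 (edgeR adjusted p = 0.0755), Mmp14 (0.0688), Mmp3 (0.168), Adamts15 (0.0634) and Adam23 (0.134), with each direction kept. In the fit of all groups the number was 17 without sample 1, with 30.3% of all genes, and 23 with the uninduced monomer line as the control, with 37.0%. These comparisons share the parental samples, so their values stand side by side and are not independent.

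**Figure D4:**
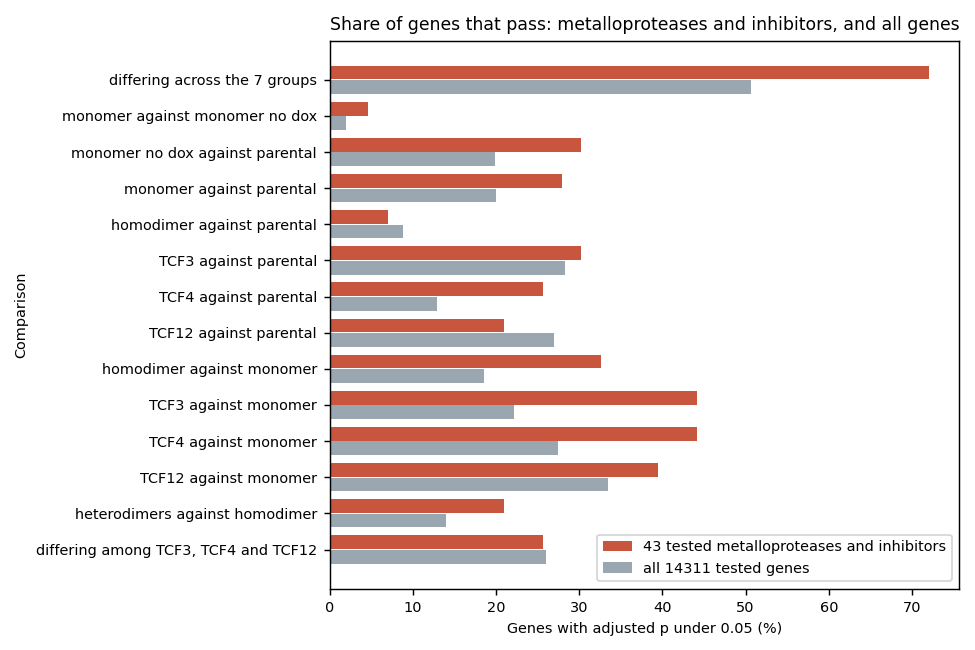
Share of genes with an edgeR adjusted p under 0.05 (x axis, percent) in each of the 14 comparisons (y axis), for the 43 tested members and for all 14311 tested genes. The members' bar is the longer in 11 of the 14 comparisons and is 44.2% against 22.1% for the TCF3 dimer over the monomer.

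Against the induced monomer, the dimers differed at more members. The homodimer gave 14 (32.6%, against 18.5% of all genes), 7 higher and 7 lower (9.15% and 9.31% of all genes). Its increases were led by Mmp16 (1.52 ± 0.38), Adamts15 (1.41 ± 0.19), Adamts19 (1.28 ± 0.31), Adamts1 (0.79 ± 0.17) and Mmp15 (0.78 ± 0.12), and its decreases by Mmp13, Adamts9 (-1.79 ± 0.20), Mmp3 (-1.64 ± 0.32), Adam19 (-1.53 ± 0.21) and Mmp19 (-1.50 ± 0.42), as log2 changes with SE. The Mmp16 call was lost without monomer sample 2 (edgeR adjusted p 0.0666) and the Mmp19 call without monomer sample 1 or homodimer sample 3 (edgeR adjusted p 0.0695 to 0.0821). The TCF3 dimer gave 19 (44.2%, against 22.1% of all genes), 17 higher and 2 lower (12.7% and 9.36% of all genes), with a median log2 change of 0.373 over the members and -0.0194 over all tested genes. Adamts2, Adamts20 (1.44 ± 0.49), Mmp2 (1.36 ± 0.07), Mmp16 (1.28 ± 0.38) and Adamts19 (1.04 ± 0.31) led the increases, and Mmp3 (-0.90 ± 0.29) and Adamts9 (-0.52 ± 0.18) were lower. Of these, Adamts20 was lost without monomer sample 1 or 2 or 3 or TCF3 dimer sample 1 (edgeR adjusted p 0.0928 to 0.308), Mmp16 without monomer sample 1 or 2 or TCF3 dimer sample 1 or 2 (edgeR adjusted p 0.0746 to 0.162), Adamts19 without monomer sample 1 or 2 or TCF3 dimer sample 1 (edgeR adjusted p 0.0642 to 0.103), Mmp3 without monomer sample 2 or 3 or TCF3 dimer sample 1 or 2 (edgeR adjusted p 0.0794 to 0.148) and Adamts9 without parental sample 1 or 3, uninduced monomer sample 1 or 2 or 3, monomer sample 1 or 3, homodimer sample 1 or 2 or 3, TCF3 dimer sample 1 or 2 or 3, TCF4 dimer sample 1 or 2 or 3 or TCF12 dimer sample 2 (edgeR adjusted p 0.052 to 0.237). Without TCF3 dimer sample 1 the Adamts20 change was 0.81. With library-size scaling the Adamts9 call was lost (edgeR adjusted p = 0.13), and with no filter or with DESeq2 the Mmp16 call (adjusted p = 0.0635 and 0.0685). The number that passed was 10 without monomer sample 1 (16.9% of all genes), 9 without monomer sample 2 (16.5%), 9 without TCF3 dimer sample 1 (14.3%) and 12 without TCF3 dimer sample 2 (19.3%).

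The TCF4 dimer also gave 19 (44.2%, against 27.4% of all genes), 13 higher and 6 lower (14.5% and 13.0% of all genes). It was led by Timp4 (1.80 ± 0.46), Mmp2 (1.50 ± 0.07), Adamts19 (1.27 ± 0.30), Adamts2 (1.17 ± 0.32) and Adamts15 (0.80 ± 0.19) among increases, and by Mmp3 (-2.60 ± 0.34), Mmp13 (-2.41 ± 0.52), Adamts9 (-1.59 ± 0.19), Mmp11 (-0.58 ± 0.13) and Adam15 (-0.56 ± 0.14) among decreases. The Timp4 call was lost without monomer sample 2 (edgeR adjusted p 0.0513) and the Adamts2 call without monomer sample 1 (edgeR adjusted p 0.0608). The TCF12 dimer gave 17 (39.5%, against 33.5% of all genes), 11 higher and 6 lower (18.1% and 15.5% of all genes). Increases were led by Timp4 (1.55 ± 0.49), Mmp2 (1.52 ± 0.07), Adamts20 (1.43 ± 0.49), Mmp16 (1.38 ± 0.38) and Adamts19 (1.04 ± 0.31), and decreases by Mmp3 (-2.68 ± 0.35), Mmp13 (-1.88 ± 0.50), Adamts9 (-1.73 ± 0.20), Mmp19 (-1.11 ± 0.39) and Adam23 (-0.57 ± 0.11). Calls were lost for Timp4 without monomer sample 1 or 2 (edgeR adjusted p 0.0648 to 0.122), for Adamts20 without monomer sample 1 or 2 or 3 or TCF12 dimer sample 2 or 3 (edgeR adjusted p 0.06 to 0.0852), for Mmp16 without monomer sample 2 or TCF12 dimer sample 2 (edgeR adjusted p 0.0522 to 0.0746), for Adamts19 without monomer sample 2 or TCF12 dimer sample 3 (edgeR adjusted p 0.0528 to 0.081) and for Mmp19 without monomer sample 1 or 2 or TCF12 dimer sample 1 (edgeR adjusted p 0.067 to 0.124). Without TCF12 dimer sample 1, the TCF4 dimer gave 31 members with 45.5% of all genes, and the TCF12 dimer 29 with 42.4%. Without monomer sample 2 the TCF12 dimer gave 9, with 26.8%. With the 2 groups fitted alone it gave 6 of 38 tested members, with 11.3%, and Adamts19, Mmp19 and Adam23 were among the calls lost (edgeR adjusted p 0.0698 to 0.194). Its Timp4 call was lost with no filter and with DESeq2 (adjusted p = 0.0593 and 0.0671).

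The heterodimers as a class were set against the homodimer. Of 43 members 9 passed (20.9%, against 14.0% of all genes), 8 higher and 1 lower (7.99% and 6.04% of all genes). Higher were Adam19, Mmp2, Adamts4 (0.75 ± 0.19), Mmp11 (0.55 ± 0.11), Timp3 (0.52 ± 0.14), Timp2, Adamts7 (0.44 ± 0.14) and Adam10 (0.40 ± 0.09), and lower was Adamts15, as log2 changes with SE. For 4 of the 43 members (9.30%), all 9 heterodimer samples lay on 1 side of all 3 homodimer samples, as they did for 9.20% of all genes, a share near that of the members. The Adamts4 call was lost without homodimer sample 1 or 3 (edgeR adjusted p 0.0751 to 0.106) and the Timp3 call without homodimer sample 1 or 2 (edgeR adjusted p 0.0772 to 0.0792). With these 4 groups fitted alone the Timp3 call was also lost (edgeR adjusted p = 0.0925). The number was 14 without TCF12 dimer sample 1, with 28.9% of all genes. It was 5 without homodimer sample 2 (9.04% of all genes) and 5 without homodimer sample 3 (9.36%). Among the 3 heterodimer groups themselves, 11 members differed (25.6%, against 26.0% of all genes), and 21 without TCF12 dimer sample 1, with 40.1% of all genes, and 17 without TCF12 dimer sample 3, with 49.9% of all genes. The TCF3 dimer libraries had more Mmp3 (log2 1.70), Adamts9 (1.06), Adam19 (1.03) and Mmp11 (0.82) than the TCF4 dimer line, and less Adamts15 (-1.07) and Timp4 (-1.49). Between the TCF4 and the TCF12 dimer 0 of 43 members passed by edgeR and 0 by DESeq2, with 2 at an unadjusted edgeR p under 0.05, and 3.24% of all genes passed by edgeR.

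Genes that work with these enzymes were read from lists of related genes. Against the parental line, 16.3% of all genes were higher in the TCF3 dimer libraries and 1719 of the 14311 lower, for the TCF4 dimer 7.18% were higher and 5.67% lower, and 15.5% were higher and 11.5% lower in the TCF12 dimer libraries. The counts of each list stand beside these shares. Of 14 regulators of MMP activity, all tested, 7 rose and 0 fell in the TCF3 dimer libraries against the parental line (median log2 change 0.351, all tested genes 0.0131). They included Pcsk5 (2.09), a proprotein convertase, and Reck (1.19), a membrane-anchored MMP inhibitor. In the TCF4 dimer line 3 rose and 1 fell, and in the TCF12 dimer libraries 4 rose and 2 fell. Pcolce, which codes for an enhancer of procollagen C-proteinase, belongs to a list of 10 ADAMTS-like genes and cofactors, 6 of them tested. It stood at 5.22 ± 0.555 CPM in parental samples, 12.9 ± 1.49 CPM in the uninduced and 28.2 ± 2.74 CPM in induced monomer samples, and 13.4 ± 1.45 CPM with the homodimer (SD, n = 3). It reached 46.2 ± 4.76, 30.3 ± 0.578 and 52.5 ± 19.8 CPM with the TCF3, TCF4 and TCF12 dimers. Pcolce rose on induction of the monomer (log2 fold change 1.14 ± 0.19 SE, edgeR adjusted p = 0.0018) and with the heterodimers over the homodimer (log2 fold change 1.64 ± 0.16 SE, edgeR adjusted p = 1.0e-06). From that list, 4 of 6 rose in the TCF3 dimer libraries and 3 of 6 in each of the other heterodimer groups against the parental line, with 0 lower.

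Of 9 genes of the plasminogen activator system, 6 were tested. Against the parental line 2 were higher and 0 lower both in the uninduced monomer line and in the TCF3 dimer libraries. Of all genes, 10.5% and 16.3% were higher there. With the TCF4 and with the TCF12 dimer 1 was higher and 2 were lower. Of all genes, 7.18% and 15.5% were higher and 5.67% and 11.5% lower in these. Plaur, the urokinase receptor, was higher than in the parental line in the uninduced monomer line (log2 1.85) and the TCF3 dimer libraries (0.96) and lower with the TCF4 (-1.13) and TCF12 dimers (-1.09). Plat, which codes for tissue plasminogen activator, was higher and lower in the same groups (log2 0.97, 0.83, -0.61 and -0.61). Of 12 MMP substrates and adhesion genes, all tested, 9 rose and 1 fell in the TCF3 dimer libraries, 1 rose and 3 fell with the TCF4 dimer, and 2 rose and 5 fell with the TCF12 dimer. The 1 of 12 higher with the TCF4 dimer is near the 7.18% of all genes, and the 2 of 12 with the TCF12 dimer near the 15.5%. Col1a2 rose with all 3 heterodimers (log2 1.65, 1.07 and 1.89). Col4a2, a chain of the basement membrane collagen that MMP2 cuts, rose with the TCF3 dimer (1.46) and fell with the TCF4 (-0.66) and TCF12 dimers (-0.46). Of 10 ADAM regulators, 8 tested, 4 rose and 1 fell with the TCF3 dimer, 1 rose with the TCF4 dimer, and 3 rose and 2 fell with the TCF12 dimer. For the TCF4 dimer, 1 of 8 is near the share of all genes. Rhbdf1, which codes for an inactive rhomboid that carries ADAM17 to the surface, rose in all 3 (log2 0.51, 0.57 and 0.61). The endoderm marker sums were high in the groups where Plaur, Plat and Col4a2 were high, and their part was not tested.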

How the data were processed

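Gene counts of 21 samples were used. Each sample has 1 deposited table of unnormalized counts by gene symbol, made by the authors with FastQC, TopHat2 and HTSeq on mm10/GRCm38, per the submitters' processing notes. Versions, strand setting and annotation are not given in the sources used here. Tables were joined by position, because 25 symbols are written as dates in 18 of the 21 tables, and no metalloprotease or inhibitor is among them. Whole tables were fitted with edgeR 4.0.16 (limma 3.58.1, R 4.3.3): 1 mean per group, TMM factors, filterByExpr (a count of 10, a total of 15), quasi-likelihood F-tests and Benjamini-Hochberg adjustment over the 14311 genes kept. CPM use the kept library sizes and TMM factors. The smallest level a sample can show was taken as 3 counts, which covers counting error only. Spread of ratios used log2 of CPM + 0.5. The scripts were tested on simulated data.

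Samples were grouped by genotype and treatment in the labels. Named genes followed a rule: the 12 members that passed over the 7 groups, reached 1 CPM in a group mean and had the widest range between group means, and all TIMP genes, were given sample by sample. In each pairwise comparison up to 5 passing members in each direction were named. Loss of single calls was followed for these named calls only. Other calls carry no such check, among them Adam9 and Adamts1 with the TCF3 dimer and Mmp14 with the TCF4 dimer against the parental line. Members not tested were named where a sample reached 1 CPM. Mmp14 and some others are shown in more detail because of their role, chosen with values known. The members and the lists of related and marker genes were chosen with earlier results of these data known. Alternatives were DESeq2 1.42.0, no filter, RLE factors, scaling by library size only, a filter of 1 CPM in 3 samples, the groups compared alone, a replicate block, the uninduced monomer line as control, and each sample left out. Leaving out 2 samples together was added after seeing the data. Gene coordinates and exon lengths came from GENCODE M21 (GRCm38), matched by symbol for all 79 members, and promoter windows from RefSeq (GRCm38.p6).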

Additional observations from a re-analysis of the deposited data

Results flagged for a closer look

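Among the 3 heterodimer groups, 11 members differed by the joint edgeR test over these groups (25.6%, against 26.0% of all genes). The adjusted p was 0.000125 for Mmp11, 0.000186 for Adamts9, 0.00034 for Adam10, 0.00106 for Adam19, 0.00111 for Adamts15, 0.00118 for Mmp3 and 0.00163 for Adam23 in that edgeR test. It was 0.0171 for Adamts14, 0.0263 for Adamts1, 0.0281 for Timp4 and 0.0487 for Mmp9 (edgeR). In each of these 11 the TCF3 dimer libraries stood at an end of the order. They had the highest group mean of Mmp11, Adamts9, Adam10, Adam19, Mmp3, Adam23, Adamts14, Adamts1 and Mmp9, and the lowest of Adamts15 and Timp4. The differences of the TCF3 from the TCF12 dimer libraries were 0.66 for Mmp11, 1.20 for Adamts9, 0.61 for Adam10, 0.93 for Adam19, 0.55 for Adam23 and -0.90 for Adamts15 on the log2 scale. Mmp9 and Timp4 did not pass between these groups (edgeR adjusted p = 0.44 and 0.067). Of all genes, 19.7% passed between TCF3 and TCF4, 18.8% between TCF3 and TCF12 and 3.24% between TCF12 and TCF4. The TCF3 dimer libraries thus stood apart over all genes, and their place at an end is not particular to these members. Endoderm marker sums were 1190 to 1490 CPM in the TCF3 dimer libraries and 357 to 456 CPM over the other heterodimer samples, and their part in these differences was not tested. Groups of 3 samples are too small for a check of single outlying values.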

How the results depend on the processing

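The number of members that pass moved by over 1.5 times under these settings, in which 35 to 46 members were tested. With the uninduced monomer line as the control in place of the parental line it was 15 for the homodimer, 23 for the TCF4 dimer and 23 for the TCF12 dimer. DESeq2 gave 4 for monomer induction (2.47% of all genes). Fits of the compared groups alone gave 4 for monomer induction, 23 for the uninduced monomer line, 6 for the homodimer, 21 for the TCF3 dimer and 4 for the TCF12 dimer against the parental line. Against the monomer they gave 29 for the TCF4 dimer and 6 for the TCF12 dimer, and 5 among the heterodimers. Shares of all genes in these fits are given above for the TCF12 dimer only. The other numbers therefore do not show a change particular to the members. Without TCF12 dimer sample 1 and uninduced monomer sample 1 together the numbers against the parental line were 7 (homodimer), 22 (TCF3), 17 (TCF4) and 17 (TCF12). The shares of all genes there were 20.5%, 46.5%, 28.3% and 30.6%. Against the monomer they were 31 (TCF4) and 29 (TCF12), with 45.7% and 42.6% of all genes. The heterodimers over the homodimer gave 14 (29.4% of all genes), and 20 differed among the heterodimers (40.2%). Leaving out 1 sample at a time gave 27 to 38 members across the 7 groups, 1 to 4 for monomer induction, 7 to 20 for the uninduced line, and 8 to 17 (monomer), 3 to 6 (homodimer), 8 to 22 (TCF3), 6 to 17 (TCF4) and 8 to 17 (TCF12) against the parental line. Against the monomer the ranges were 12 to 19 (homodimer), 9 to 24 (TCF3), 14 to 31 (TCF4) and 9 to 29 (TCF12), with 5 to 14 for the heterodimers over the homodimer and 8 to 21 among the heterodimers. In each of these 14 comparisons the highest number came without TCF12 dimer sample 1, and the cause was not tested. The share of all genes that passed also rose in each of the 14 without that sample. Across the 7 groups it rose from 50.7% to 73.4%. Of 2720 values of named members under all alternatives, 2529 kept their call, 191 lost it and 0 changed direction. Members near 1 CPM rest on few reads, such as 1 to 13 per sample for Mmp13, 1 to 16 for Timp4 and 3 to 21 for Mmp9.

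Replicate numbers are shared by the groups, and no label says that they mark a litter, batch or day. The mean correlation of deviations from the group means was 0.0214 over 63 pairs with the same number (-0.221 to 0.344) and -0.0102 over 126 other pairs, and 12 of 21 samples correlated best with a sample of their own number, a hint of pairing from the data and not from the design. The numbers were not used to pair samples. A fit with a replicate block gave numbers of members that in the order of the text came to 31, 2, 13, 12, 3, 15, 10 and 9, then 14, 18, 20 and 17 against the monomer, 10 for the heterodimers over the homodimer and 12 among the heterodimers. Shares of all genes under the block are not given here. Under the block the edgeR adjusted p of 3 named calls was above 0.05: 0.0566 for Adam19 in the uninduced monomer against the parental line, 0.0517 for Timp4 in the TCF4 dimer against the parental line and 0.0527 for Adamts20 in the TCF3 dimer against the monomer.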

Other observations

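Transcription factors of epithelial-to-mesenchymal transition rose in each heterodimer group. Of 5 listed, 4 were tested, and Snai1, Snai2, Zeb1 and Zeb2 each passed against the parental line in all 3 groups. Of all genes, 16.3%, 7.18% and 15.5% were higher with the TCF3, TCF4 and TCF12 dimers. The rise was not confined to these groups. With the homodimer 2 of the 4 were higher and 0 lower (4.81% and 4.02% of all genes). With the monomer 2 were higher and 1 lower (10.8% and 9.22%), and in the uninduced monomer line 1 was higher and 1 lower (10.5% and 9.43%). Snai1 held 5.58 ± 0.800 CPM in parental samples and 4.50 ± 0.404 CPM with the homodimer, and 45.4 ± 13.6, 26.9 ± 2.96 and 58.5 ± 20.8 CPM with the TCF3, TCF4 and TCF12 dimers (SD, n = 3). Zeb1 held 1.34 ± 0.264 CPM in parental samples and 4.09 ± 0.135 CPM with the homodimer, and 12.1 ± 2.23, 4.98 ± 1.17 and 8.64 ± 1.57 CPM with the heterodimers. The heterodimers together exceeded the homodimer for Snai1 (log2 fold change 3.20 ± 0.25 SE, edgeR adjusted p = 4.7e-08) and for Zeb1 (log2 fold change 0.97 ± 0.17 SE, edgeR adjusted p = 3.8e-04).

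Of 12 listed ADAMTS substrates, 11 were tested. The fibrillin genes rose with all 3 heterodimers, Fbn2 by 2.75, 1.83 and 2.58 and Fbn1 by 1.54, 0.88 and 1.17 on the log2 scale for TCF3, TCF4 and TCF12 against the parental line. Of the 11, 4 were higher and 1 lower for TCF3, 3 and 0 for TCF4, and 4 and 2 for TCF12, where 16.3%, 7.18% and 15.5% of all genes were higher and 1719 of 14311 genes, 5.67% and 11.5% lower. Of 12 ADAM substrates, 8 were tested, with 5 higher and 1 lower for TCF3, 2 and 0 for TCF4, and 3 and 1 for TCF12, beside the same shares of all genes. Dll1, a Notch ligand, rose against the parental line with the homodimer (log2 fold change 2.01 ± 0.16 SE, edgeR adjusted p = 5.9e-08) and with the monomer (log2 fold change 1.77 ± 0.16 SE, edgeR adjusted p = 2.0e-07), and the homodimer did not pass against the monomer (log2 fold change 0.24 ± 0.14 SE, edgeR adjusted p = 0.28). Of 12 other metalloproteases, 7 were tested. Bmp1, which codes for the procollagen C-proteinase, stood at 44.2 ± 1.90 CPM in the uninduced monomer line and 31.2 ± 2.57 CPM in the TCF3 dimer libraries against 13.6 ± 1.69 CPM in the parental line (SD, n = 3), rising by 1.70 and 1.19 on the log2 scale. The monomer held 46.9 ± 5.50 CPM. Summed endoderm markers ran from 1190 to 2480 CPM in these 3 groups and from 357 to 635 CPM in the other 4, and their part was not tested.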
